A study of Mus musculus with 6 samples.

Results

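The 9 genes described here serve lactate export and pH regulation: the monocarboxylate carriers *Slc16a1* and *Slc16a3* with their chaperone *Bsg*, the carbonic anhydrases *Car9*, *Car12* and *Car2*, and the bicarbonate transporters *Slc4a2*, *Slc4a4* and *Slc4a7*. They were chosen by name, with earlier results of these data known, and all 9 were found among the 54834 genes of the deposited table. Glycolysis leaves lactate and protons in the cytosol. Monocarboxylate carriers move both across the plasma membrane together, carbonic anhydrases convert carbon dioxide and water to bicarbonate and protons and back, and Slc4 proteins carry bicarbonate. In skeletal muscle MCT4, encoded by *Slc16a3*, is known as the carrier of glycolytic fibres, and MCT1, encoded by *Slc16a1*, as that of oxidative fibres.

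The 6 libraries came from primary myoblasts of mice of the Pax7-ZSGreen genotype, the dividing progeny of muscle stem cells. Cultures adapted for more than 2 weeks to 1% or 4% pO2 (severe and moderate hypoxia), or kept at 20% pO2 (normoxia), received 1 µM PT2385 or the vehicle, 0.1% DMSO, for 48 h. PT2385 blocks the transcription factor HIF-2α by keeping it from its partner ARNT. Each library was a pool of RNA from 9 cultures that stood for 3 temporal replicates, and each condition has 1 library. Replicate error within a condition therefore cannot be given, no test was made between single libraries, the cultures share 1 genotype, and the age of the source mice is not given in the sources used here, so the values below describe these 6 pools.

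Levels are in FPKM, fragments per kilobase of transcript and relative to the depth of the library, and can be compared between genes since they are per length. Library sizes of 19.1 to 22.4 (in units of 1000000 fragments) were estimated from the steps between low values. Intervals in brackets are exact 95% intervals for counting error on those estimated fragments. They hold no biological variation. Differences are of log2(FPKM + 1), always hypoxia minus normoxia, 1% minus 4% pO2, or PT2385 minus vehicle, and a difference of at least 1 in size is called 2-fold. Background shares refer to the 11967 genes that average 1 FPKM or more. Of the 9 genes, 7 reach that mean. *Car12*, with a mean of 1.09 FPKM, does so through its hypoxic libraries, while *Car2* (0.658) and *Slc4a4* (0.626) do not reach it and are given with their values all the same. In pooled cultures, more cells with a transcript and more transcript per cell cannot be told apart.

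The cultures carried myoblast transcripts in all libraries. The summed level of 8 myoblast markers was 761 to 847 FPKM in the hypoxic libraries and 1308 to 1338 FPKM in the normoxic ones, and of these markers *Myf5* lay at or below 0.0231 FPKM in hypoxia and at 0.436 to 0.481 FPKM in normoxia. Erythroid markers, which matter for carbonic anhydrases and anion exchangers, summed to at most 0.366 FPKM, with *Hbb-bs*, *Slc4a1* and *Epb42* at 0 in all 6 libraries. Endothelial markers summed to 0.553 to 1.13 FPKM in hypoxia and 0.382 to 0.927 FPKM in normoxia, and fibro-adipogenic markers to 4.54 to 7.77 FPKM in hypoxia and 2.46 to 3.57 FPKM in normoxia. Leukocyte markers summed to 20.7 to 103 FPKM in hypoxia, against 4.37 to 4.99 FPKM in normoxia, most of it *Laptm5* and *Cd68*, while *Adgre1* and *Itgam* were at 0 and *Ptprc* was at most 0.00994 FPKM. The myoblast sum was lower and the fibro-adipogenic and leukocyte sums were higher in all 4 hypoxic libraries than in both normoxic ones. Most of the myoblast sum was *Myod1*, at 501 to 625 FPKM in hypoxia and 921 to 951 FPKM in normoxia. *Itga7* was instead higher at 1% pO2, at 46.7 and 51.0 FPKM (PT2385 and vehicle) against 44.7 and 42.9 FPKM at 20%. *Ly6a* made up most of the fibro-adipogenic sum, at 3.84 to 6.86 FPKM in hypoxia and 1.90 to 3.05 FPKM in normoxia, while *Thy1* was lower in hypoxia. These sums rest mainly on single genes, and their part in the differences below was not tested.

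The promoters of the 3 genes that mark the extremes of the set are shown because the study concerns HIF, which binds the short motif ACGTG or GCGTG. *Slc16a3* and *Car9* had the largest hypoxia differences of the 9 genes, and *Slc16a1* was the 1 gene lower in all hypoxic libraries. Sequences are from RefSeq on GRCm38.p6 and read 5′ to 3′ on the plus strand, upstream of the RefSeq start, with each match on either strand in capitals. The stretch of *Slc16a3* is chr11:120948817-120949066 and that of *Slc16a1* is chr3:104638414-104638663. For *Car9* only the last 30 bases before the start are given, chr4:43506996-43507025. The stretches of *Car9* and *Slc16a3* lie before the RefSeq start but inside the annotated genes, which begin further upstream (chr4:43506966 and chr11:120948480).
Slc16a3: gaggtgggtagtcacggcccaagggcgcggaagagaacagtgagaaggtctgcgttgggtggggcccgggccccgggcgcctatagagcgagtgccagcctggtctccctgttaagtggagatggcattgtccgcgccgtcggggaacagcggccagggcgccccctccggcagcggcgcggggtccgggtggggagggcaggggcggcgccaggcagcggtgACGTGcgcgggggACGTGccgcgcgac
Car9: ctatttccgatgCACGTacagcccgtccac
Slc16a1: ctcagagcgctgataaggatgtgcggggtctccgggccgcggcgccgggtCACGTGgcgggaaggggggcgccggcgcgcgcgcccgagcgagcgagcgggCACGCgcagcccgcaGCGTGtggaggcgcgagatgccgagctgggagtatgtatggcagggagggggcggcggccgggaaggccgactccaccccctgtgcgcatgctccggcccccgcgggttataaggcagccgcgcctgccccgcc

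*Slc16a3* held 2 ACGTG, beginning 27 and 14 bases before the start, and *Car9* held 1 ACGTG on the minus strand, 18 bases before it. *Slc16a1* held 4 matches upstream. Of these, 2 ACGTG on opposite strands overlap in CACGTG (200 and 199 bases before the start), and 2 are GCGTG (149 and 134 bases before it), with a further ACGTG 21 bases after the start. Windows of 300 bases were in hand for 7 of the 9 genes, 9 windows in all since *Slc4a2* and *Slc4a4* have 2 each, and 5 of the 9 held a match. *Slc4a2* and *Slc4a4* each held GCGTG in 1 window, and the windows of *Car12* and *Slc4a7* held neither motif. The window of *Slc4a7*, chr14:14718534-14718833, lies inside the gene, which begins at 14702279, so sequence before that outermost start was not examined. The windows of *Slc4a2* and *Slc4a4* also lie inside their annotated genes. Over all 32851 mouse promoter windows, 43.8% held either motif, 19.6% ACGTG and 32.4% GCGTG. A match is a run of letters and not evidence of binding, and the gene lower in hypoxia held one as *Slc16a3* and *Car9* did.

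*Slc16a3*, which encodes the high-capacity lactate exporter MCT4, went with oxygen more than any other of the 9 genes. Its level was 297 and 288 FPKM at 1% pO2 (PT2385 and vehicle), 361 and 354 FPKM at 4% pO2, and 4.50 and 1.72 FPKM at 20% pO2. The hypoxic and normoxic libraries did not overlap, and the lowest hypoxic library lay far above the highest normoxic one. In vehicle the FPKM ratio to normoxia was 168 (136 to 210) at 1% pO2 and 206 (166 to 258) at 4% pO2, differences of 6.73 and 7.03. Each of these placed *Slc16a3* second from the top of 11967 genes. Between the hypoxic levels the order ran the other way, with 1% below 4% pO2 by a ratio of 0.824 (0.805 to 0.842) in PT2385 and 0.815 (0.797 to 0.833) in vehicle. The gene (ENSMUSG00000025161, GRCm38 chr11:120948480-120960868, plus strand) has several coding transcripts, and the interval was computed on the shortest.

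*Slc16a1*, which encodes MCT1, a carrier that takes up or releases lactate along its gradient, was the 1 gene of the 9 with all hypoxic libraries below both normoxic ones. It measured 44.0 and 46.0 FPKM at 1% pO2 (PT2385 and vehicle), 49.3 and 49.6 FPKM at 4% pO2, and 56.4 and 55.8 FPKM at 20% pO2. The libraries fell in the order of oxygen, 1% lowest and 20% highest, but the steps were small. In vehicle the ratio to normoxia was 0.823 (0.791 to 0.857) at 1% pO2 and 0.887 (0.854 to 0.923) at 4% pO2. A difference of the size found at 1% pO2, −0.27, was reached or passed by 49.0% of all genes, so it was an ordinary one. The gene lies at chr3:104638668-104658462 on the plus strand (ENSMUSG00000032902).

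The 2 carriers exchanged places with oxygen. *Slc16a3* made up 86.2% to 88.0% of their summed FPKM in the 4 hypoxic libraries, against 7.38% in normoxia with PT2385 and 2.98% in normoxia with vehicle. Their sum was 334 to 410 FPKM in hypoxia and 57.6 to 60.9 FPKM in normoxia.

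*Bsg* encodes basigin, the single-pass glycoprotein that MCT1 and MCT4 need to reach the plasma membrane, and it had the highest level of the 9 genes in each library. It measured 817 and 812 FPKM at 1% pO2 (PT2385 and vehicle), 625 and 593 FPKM at 4% pO2, and 374 and 344 FPKM at 20% pO2. These values were graded, with 1% above 4% and 4% above 20% pO2 in both treatments and no overlap. In vehicle the ratio to normoxia was 2.36 (2.30 to 2.42) at 1% pO2 and 1.72 (1.68 to 1.77) at 4% pO2, so 2-fold was reached at 1% alone. *Bsg* was thus higher at 1% than at 4% pO2 (ratio 1.31, 1.28 to 1.34, in PT2385 and 1.37, 1.34 to 1.40, in vehicle) where *Slc16a3* was lower. Per FPKM of carrier, *Bsg* stood at 1.47 to 2.43 in hypoxia and at 5.98 to 6.15 in normoxia, so the summed carriers differed more than their chaperone. *Bsg* (ENSMUSG00000023175) lies at chr10:79704491-79711969 on the plus strand.

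**Figure D1:**
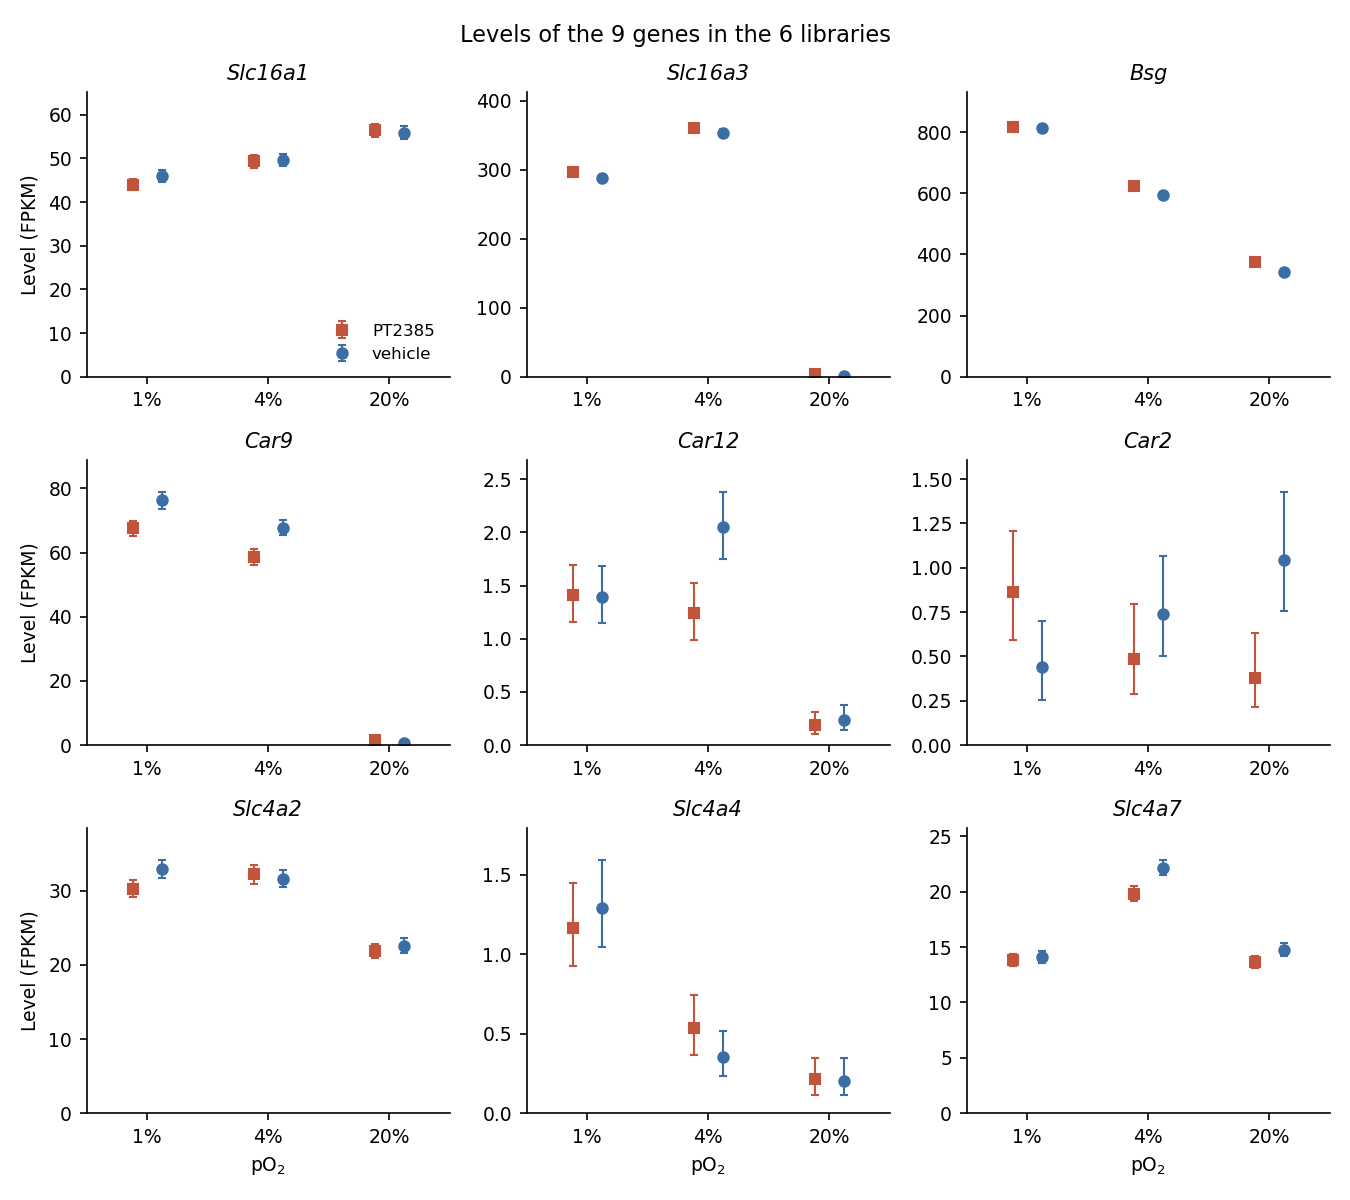
Levels of the 9 genes in FPKM (y axes from 0, scaled per gene) at 1%, 4% and 20% pO2 with PT2385 (squares, left) and vehicle (circles, right), 1 library per point, with bars for the 95% counting interval. *Slc16a3* and *Car9* sit near 0 at 20% pO2, *Bsg* and *Slc16a1* are graded with oxygen in opposite directions, and *Slc4a7* stands out at 4% pO2.

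Among the carbonic anhydrases, *Car9*, a membrane enzyme with its active site outside the cell and a widely used marker of hypoxia, had the second largest difference of the 9 genes. Its level was 67.5 and 76.3 FPKM at 1% pO2 (PT2385 and vehicle), 58.6 and 67.8 FPKM at 4% pO2, and 1.54 and 0.606 FPKM at 20% pO2. In vehicle the ratio to normoxia was 126 (85.4 to 189) at 1% pO2 and 112 (75.9 to 168) at 4% pO2, rank 4 and rank 6 of 11967. The width of these intervals comes from normoxia, where vehicle held an estimated 27 fragments. Unlike *Slc16a3*, *Car9* was higher at 1% than at 4% pO2, by a ratio of 1.15 (1.09 to 1.22) in PT2385 and 1.13 (1.07 to 1.18) in vehicle. *Car9* (ENSMUSG00000028463, chr4:43506966-43513729, plus strand) overlaps the antisense gene *Gm12454*, listed at 0.705 to 2.49 FPKM. Whether counting used strand is not given in the sources used here, so reads of the pair may be mixed, a limit that bears on the normoxic values above all.

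*Car12*, a second membrane-bound enzyme that faces outward, was low throughout. It measured 1.41 and 1.39 FPKM at 1% pO2 (PT2385 and vehicle), 1.24 and 2.05 FPKM at 4% pO2, and 0.191 and 0.236 FPKM at 20% pO2. Hypoxic and normoxic libraries did not overlap, and the ratio to normoxia in vehicle was 5.88 (3.55 to 10.03) at 1% pO2 and 8.67 (5.30 to 14.5) at 4% pO2. At this low level the log2(FPKM + 1) scale understates such ratios, giving 0.95 and 1.30, so *Car12* counted as 2-fold in vehicle at 4% alone. The vehicle library at 4% pO2 was the highest of the 4 hypoxic ones, and the other 3 had counting intervals that overlapped each other. *Car12* is ENSMUSG00000032373, chr9:66713686-66766845, plus strand.

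*Car2*, the abundant soluble enzyme of red cells and many epithelia, was barely measured here. It stood at 0.863 and 0.438 FPKM at 1% pO2 (PT2385 and vehicle), 0.487 and 0.741 FPKM at 4% pO2, and 0.379 and 1.04 FPKM at 20% pO2. These values rest on 15 to 41 estimated fragments per library, and the hypoxic libraries lay within the range of the normoxic ones. With PT2385 the 1% library was above the 20% one (ratio 2.28, 1.18 to 4.43), while with vehicle it was below (ratio 0.419, 0.222 to 0.7496), so no single direction with oxygen held. *Car2* is ENSMUSG00000027562, chr3:14886273-14900770, plus strand.

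*Car9* made up 96.0% to 97.7% of the summed FPKM of the 3 enzymes in hypoxia, against 73.0% in normoxia with PT2385 and 32.1% in normoxia with vehicle. In normoxia with vehicle *Car2* ranked above *Car9*, though their counting intervals (0.755 to 1.43 and 0.404 to 0.891 FPKM) overlapped.

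Of the bicarbonate transporters, none was 2-fold different from normoxia on the log2(FPKM + 1) scale. *Slc4a2*, which encodes the anion exchanger AE2 that trades bicarbonate for chloride and so loads the cell with acid, was the highest of the 3 in each library. It measured 30.2 and 32.9 FPKM at 1% pO2 (PT2385 and vehicle), 32.2 and 31.6 FPKM at 4% pO2, and 21.8 and 22.6 FPKM at 20% pO2. All hypoxic libraries lay above both normoxic ones, while the ratio of 1% to 4% pO2 was 0.940 (0.890 to 0.993) in PT2385 and 1.04 (0.989 to 1.096) in vehicle. In vehicle the ratio to normoxia was 1.46 (1.38 to 1.54) at 1% pO2 and 1.40 (1.32 to 1.48) at 4% pO2, a size of difference shared by 24.2% and 30.2% of all genes. *Slc4a2* (ENSMUSG00000028962, chr5:24423837-24440950, plus strand) overlaps *Fastk* on the opposite strand, listed at 41.4 to 53.3 FPKM, so some of its reads may belong to that gene.

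*Slc4a7* encodes NBCn1, an electroneutral sodium-bicarbonate cotransporter that extrudes acid. Its level was 13.8 and 14.1 FPKM at 1% pO2 (PT2385 and vehicle), 19.8 and 22.1 FPKM at 4% pO2, and 13.7 and 14.7 FPKM at 20% pO2. The 4% libraries were the high ones, and the 1% libraries could not be separated from normoxia, with ratios of 1.01 (0.956 to 1.07) in PT2385 and 0.955 (0.904 to 1.01) in vehicle. At 4% pO2 it was higher than in normoxia, with a ratio of 1.45 (1.37 to 1.53) in PT2385 and a difference of 0.56 in vehicle (counting interval of the ratio 1.43 to 1.58). In vehicle its difference between 1% and 4% pO2, −0.62, was the largest of the 9 genes below 0. *Slc4a7* is ENSMUSG00000021733, chr14:14702279-14799940, plus strand.

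*Slc4a4* encodes NBCe1, an electrogenic sodium-bicarbonate cotransporter, and differed from *Slc4a7* in which hypoxic level was the higher. It was listed at 1.16 and 1.29 FPKM at 1% pO2 (PT2385 and vehicle), 0.534 and 0.352 FPKM at 4% pO2, and 0.214 and 0.205 FPKM at 20% pO2. The 1% libraries were the high ones, at a ratio to 4% pO2 of 2.18 (1.46 to 3.42) in PT2385 and 3.67 (2.35 to 5.89) in vehicle. Against normoxia in vehicle the ratio was 6.30 (3.55 to 11.5) at 1% pO2 and 1.72 (0.859 to 3.42) at 4% pO2, and at 4% pO2 with PT2385 it was 2.49 (1.33 to 4.98). On the shortest transcript, the difference at 4% pO2 was within counting error with vehicle and beyond it with PT2385. That reading depends on the transcript. In vehicle the shortest gives an estimated 26 fragments at 4% and 15 at 20% pO2, and the longest 63 and 35, for which no interval was computed. The level of *Slc4a4* is low, at 15 estimated fragments in each normoxic library on the shortest transcript. *Slc4a4* is ENSMUSG00000060961, chr5:88886818-89239653, plus strand.

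In the order of levels, the first 7 places were the same in the 4 hypoxic libraries: *Bsg*, *Slc16a3*, *Car9*, *Slc16a1*, *Slc4a2*, *Slc4a7* and *Car12*. In both normoxic libraries the order was *Bsg*, *Slc16a1*, *Slc4a2*, *Slc4a7* and *Slc16a3*, followed by the 4 low genes. In normoxia the neighbours among *Car12*, *Slc4a4*, *Car2* and *Car9* had overlapping counting intervals, except *Car9* above *Car2* with PT2385 (1.20 to 1.95 and 0.215 to 0.634 FPKM) and *Car9* above *Car12* with vehicle (0.404 to 0.891 and 0.144 to 0.374 FPKM). At 1% pO2 *Car12* and *Slc4a4* overlapped in the same way with both treatments. The 9 genes summed to 1121 to 1273 FPKM in hypoxia and 441 to 473 FPKM in normoxia, with *Bsg* the largest single term in both.

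All 4 hypoxic libraries lay above both normoxic ones for 6 of the 9 genes and below them for 1 (*Slc16a1*), and the ranges overlapped for 2 (*Car2* and *Slc4a7*). Over all genes the shares were 25.7% above and 22.4% below. The 9 genes include *Car2* and *Slc4a4*, which do not reach the mean of 1 FPKM that the genes of these shares do. At 1% pO2 in vehicle 3 of the 9 genes were 2-fold higher (*Slc16a3*, *Car9* and *Bsg*), where 6.59% of all genes were, and none was 2-fold lower, where 1.96% were. At 4% pO2 in vehicle it was 3 of 9 (*Slc16a3*, *Car9* and *Car12*), against 7.14% of all genes, and none was lower, against 2.95%. *Slc16a3* and *Car9* were 2-fold higher at both pO2 levels, as were 3.97% of all genes. The median difference of the 9 genes was 0.93 at 1% and 0.56 at 4% pO2 in vehicle, and that of all genes 0.01 and 0.02. For the 7 genes that reach the mean it was 0.95 and 0.78. Of these 7, *Car12* reached the mean only through its hypoxic libraries, and the 0.95 is its own value. The 9 genes were also chosen with earlier results of these data known, so the shares and medians of all genes stand beside theirs as description and not as a test. Between 1% and 4% pO2 no gene of the 9 was 2-fold different on the log2(FPKM + 1) scale with PT2385 or with vehicle, where 5.96% and 5.28% of all genes were. At the low level of *Slc4a4* that scale held FPKM ratios of 2.18 with PT2385 and 3.67 with vehicle to differences of 0.50 and 0.76.

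**Figure D2:**
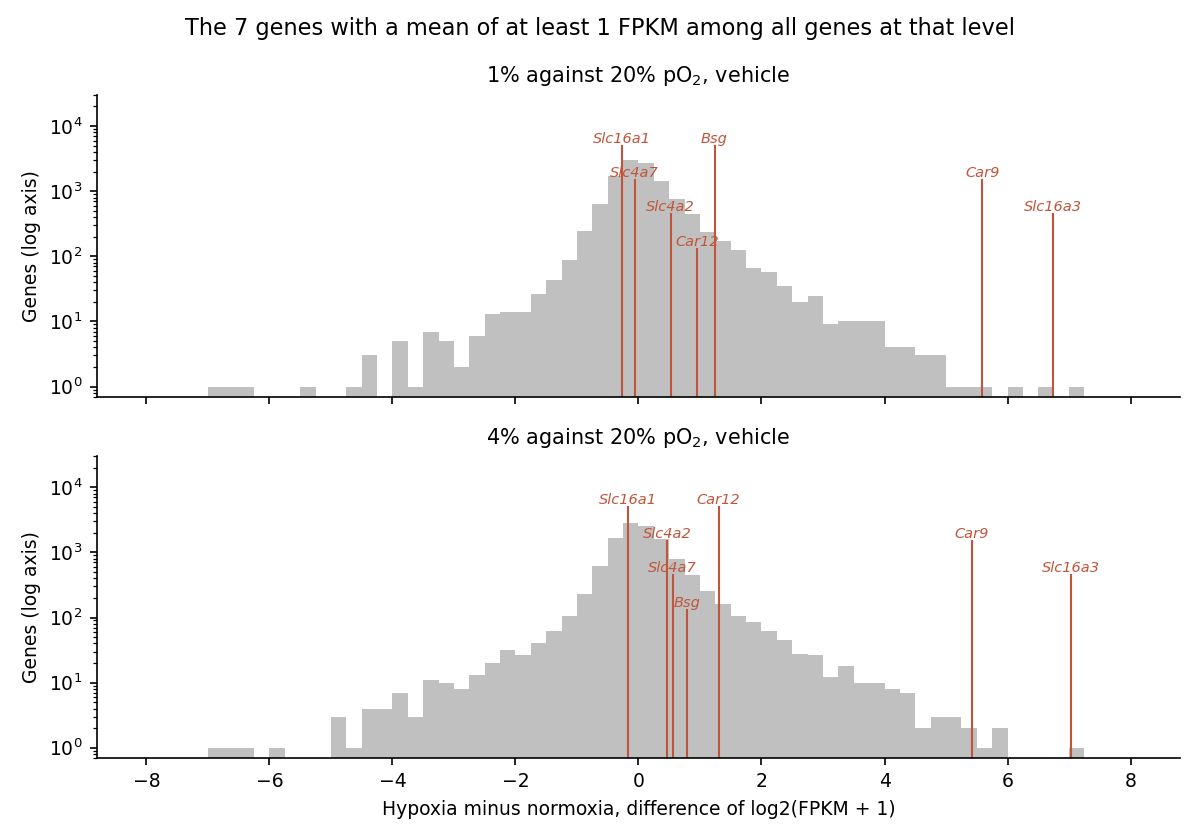
Distribution of the hypoxia differences in vehicle (x axis, log2(FPKM + 1)) over the 11967 genes averaging 1 FPKM or more (y axis, genes per bin, log axis), with lines at the 7 described genes that reach that mean (line heights carry no value). *Slc16a3* at 6.73 and 7.03 and *Car9* at 5.59 and 5.42 lie in the far right tail, with *Bsg* at 1.24 and 0.78, *Car12* at 0.95 and 1.30, and the other 3 nearer 0.

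The comparison of PT2385 with vehicle asks what depends on HIF-2α. In hypoxia no gene of the 9 was 2-fold different between PT2385 and vehicle at 1% or 4% pO2. Only 0.802% and 1.1% of all genes were, so that count says nothing particular of the 9. *Slc16a3* had PT2385 to vehicle ratios of 1.03 (1.01 to 1.06) at 1% pO2 and 1.02 (1.00 to 1.04) at 4% pO2. *Bsg* had 1.01 (0.988 to 1.03) and 1.05 (1.03 to 1.08), and *Slc16a1* had 0.956 (0.916 to 0.998) and 0.995 (0.954 to 1.04). These carrier values were close to 1, while *Car9* was below 1 at both levels, at 0.885 (0.842 to 0.930) and 0.865 (0.819 to 0.914). Its differences of −0.17 and −0.21 were of a size that 23.1% and 26.3% of all genes reached. *Car12* was lower with PT2385 at 4% pO2 (ratio 0.605, 0.460 to 0.788) and not at 1% pO2 (1.02, 0.768 to 1.33). *Car2*, at its low level, had a ratio of 1.97 (1.06 to 3.75) at 1% pO2 and of 0.657 (0.344 to 1.24) at 4% pO2.

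Of the bicarbonate transporters, *Slc4a7* had PT2385 to vehicle ratios of 0.983 (0.929 to 1.04) at 1% and 0.894 (0.853 to 0.938) at 4% pO2, and *Slc4a2* had 0.920 (0.872 to 0.969) and 1.02 (0.966 to 1.07). *Slc4a4* had 0.901 (0.660 to 1.23) and 1.52 (0.864 to 2.59), both within counting error of 1 on its shortest transcript, the only one for which intervals were computed. The counting intervals leave out culture and library variation, so an interval clear of 1 does not show an effect of PT2385.

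At 20% pO2 the pattern was another. *Slc16a3* was 2-fold higher with PT2385, at 4.50 FPKM against 1.72 FPKM with vehicle, an estimated 223 and 85 fragments, a ratio of 2.62 (2.03 to 3.40) and a difference of 1.02. Only 0.476% of all genes were 2-fold higher there, and *Slc16a3* ranked 55 from the top. Its place at the 2-fold mark was narrow, and rescaling the libraries to the same sum put the difference at 0.98. *Car9* had 1.54 FPKM with PT2385 against 0.606 FPKM with vehicle, a ratio of 2.53 (1.59 to 4.09) that its low level held to a difference of 0.66. *Bsg*, the chaperone, was 1.09 (1.06 to 1.12) times its vehicle level, *Slc16a1* 1.01 (0.973 to 1.05), *Slc4a2* 0.967 (0.909 to 1.03) and *Slc4a7* 0.927 (0.877 to 0.980). Of the low genes, *Car12* had 0.808 (0.373 to 1.64) and *Slc4a4* 1.05 (0.455 to 2.19), while *Car2* had 0.363 (0.188 to 0.674).

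**Figure D3:**
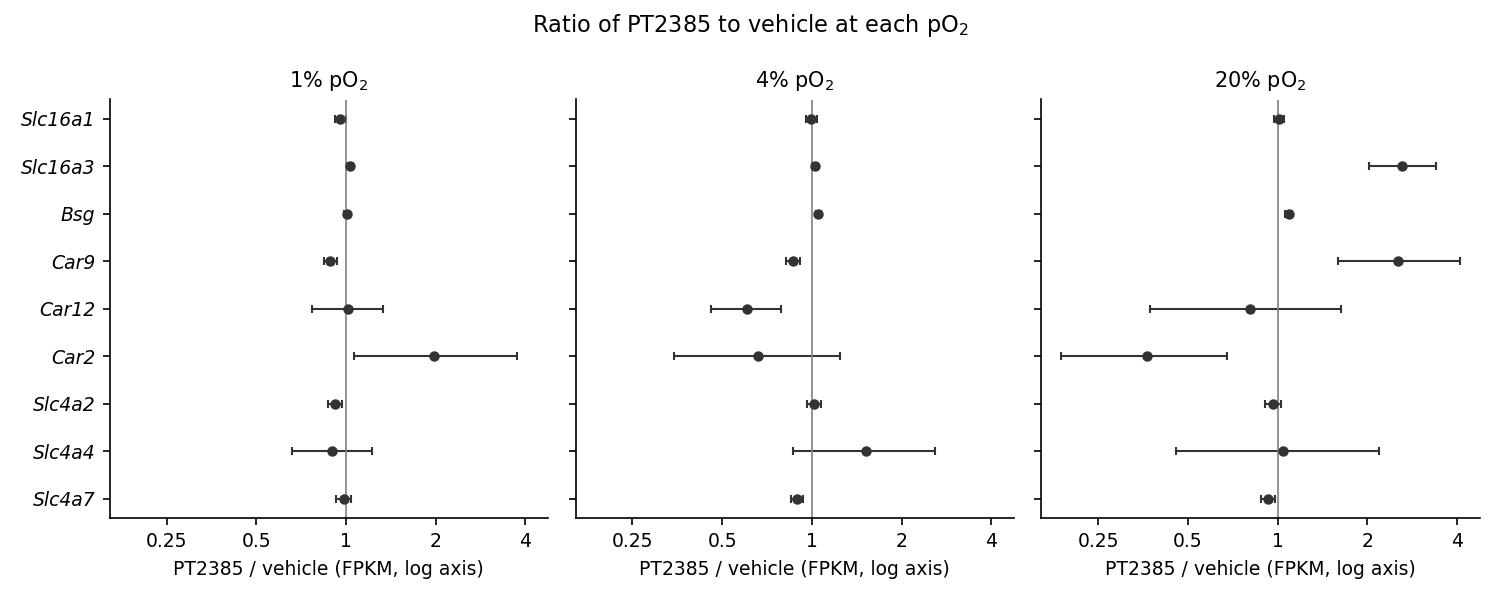
Ratio of PT2385 to vehicle (x axis, FPKM, log axis) for the 9 genes at 1%, 4% and 20% pO2, with bars for the exact 95% counting interval and a line at 1. At 20% pO2 *Slc16a3* (2.62) and *Car9* (2.53) lie right of the line, and in hypoxia the well-measured genes lie close to it.

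With PT2385 the hypoxia differences were of much the same form. *Slc16a3* was higher than in normoxia by 5.76 at 1% and 6.04 at 4% pO2 with PT2385, against 6.73 and 7.03 with vehicle, and *Car9* by 4.76 and 4.56, against 5.59 and 5.42. These smaller differences came with the higher normoxic levels under PT2385, where the hypoxic levels of *Slc16a3* were nearly equal and those of *Car9* slightly lower with PT2385. *Bsg* was higher by 1.12 and 0.74 with PT2385, against 1.24 and 0.78 with vehicle. *Slc16a3*, *Car9*, *Bsg* and *Car12* were 2-fold higher at 1% pO2 with PT2385, 4 of 9 against 6.54% of all genes, and *Slc16a3* and *Car9* at 4% pO2, 2 of 9 against 7.24%. *Slc16a3* and *Car9* were 2-fold higher at both levels in both treatments, as were 3.09% of all genes. The hypoxia comparisons of one treatment share their normoxic library, so their values stand side by side and are not independent.

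**Figure D4:**
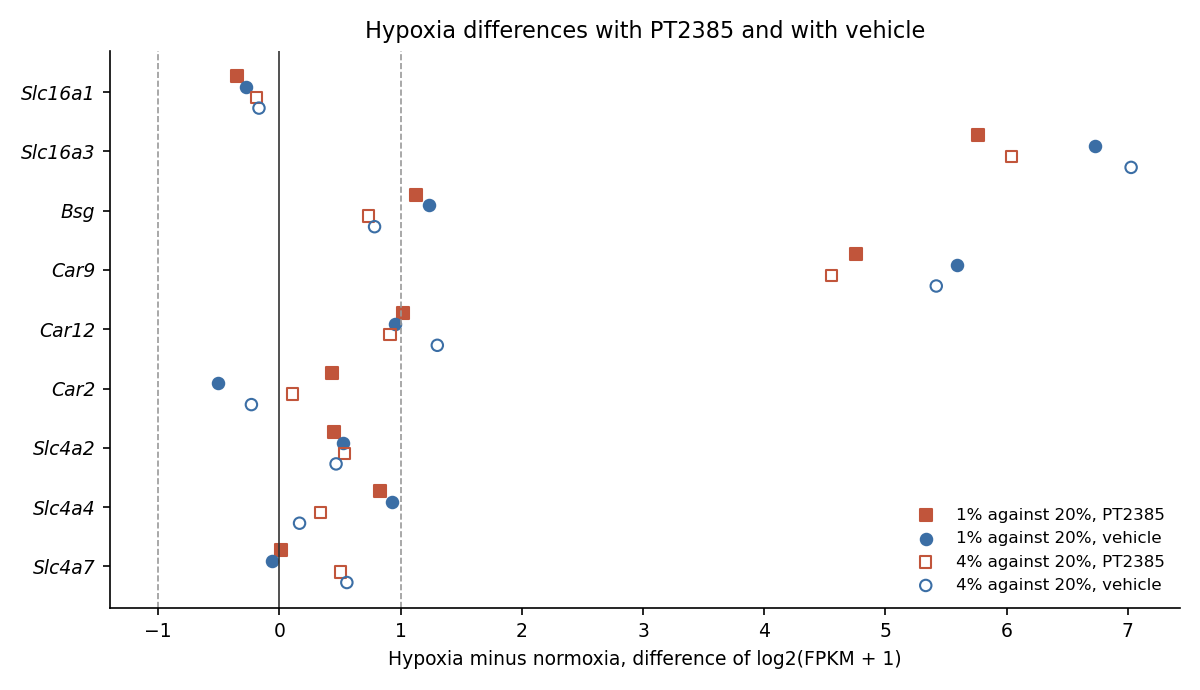
Hypoxia minus normoxia, as differences of log2(FPKM + 1) (x axis), for each of the 9 genes with PT2385 (squares) and vehicle (circles), at 1% (filled) and 4% pO2 (open), with dashed lines at the 2-fold mark. The squares of *Slc16a3* and *Car9* lie left of the circles but far beyond the mark, and *Car2* changes side with treatment.

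The remaining genes of the pathway were read from lists without the 9 genes. Of 16 further monocarboxylate carriers and chaperones, 7 reached a mean of 1 FPKM. Among these 7, *Slc16a6* and *Slc16a13* were 2-fold higher at both pO2 levels in vehicle, where 3.97% of all genes were. *Slc16a6*, a carrier of the ketone body β-hydroxybutyrate in zebrafish and known in mammals as MCT7, measured 10.8 and 11.7 FPKM at 1% pO2 (PT2385 and vehicle), 4.43 and 6.04 FPKM at 4% pO2, and 1.30 and 1.34 FPKM at 20% pO2. *Slc16a13* differed by 1.02 and 1.45 in vehicle but by 0.46 and 1.35 with PT2385. The alternative chaperones had no such difference, with *Emb* (embigin) at −0.46 and −0.27 and *Nptn* (neuroplastin) at 0.18 and −0.04 at 1% and 4% pO2.

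Of 13 further carbonic anhydrases, 3 reached the mean. Among these 3, *Car3*, the soluble isoform of slow muscle, was 2-fold higher at both levels (1.37 and 1.71), where 3.97% of all genes were. *Car3* measured 7.79 FPKM at 1% and 10.1 FPKM at 4% pO2 against 2.40 FPKM at 20% pO2 in vehicle. *Car13*, another cytosolic isoform, differed by 0.93 and 0.86 and did not reach 2-fold. *Car8*, a member without catalytic activity, differed by −0.48 and 0.16. Of 17 further bicarbonate transporters, 4 reached the mean. Among these 4, *Slc4a11* was 2-fold higher at both levels (2.05 and 1.71), where 3.97% of all genes were. *Slc4a11* measured 6.76 FPKM at 1% and 5.14 FPKM at 4% pO2 against 0.870 FPKM at 20% pO2 in vehicle. Like *Car12*, *Slc4a11* reached the mean only through its hypoxic libraries. Despite its family name, SLC4A11 is known in human cells for conducting protons or hydroxide and not bicarbonate.

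Sodium-proton exchangers, the other main route of acid extrusion, held no gene that was 2-fold different at both levels among the 9 of 16 that reached the mean, where 3.97% of all genes were higher and 1.13% lower, shares at which few of 9 genes or none would pass. *Slc9a2*, named after its values were seen, was 2-fold higher at 4% pO2 alone (0.79 at 1% and 1.26 at 4% pO2 in vehicle). Among subunits of the V-ATPase, the proton pump of lysosomes and some plasma membranes, 18 of 25 reached the mean. Of these, 1 was 2-fold higher at both levels, where 3.97% of all genes were, so the count says nothing particular of the pump. This was *Atp6v1g1*, a stalk subunit (1.75 and 1.69). It measured 227 FPKM at 1% and 218 FPKM at 4% pO2 against 66.7 FPKM at 20% pO2 in vehicle. At 1% pO2, 16 of the 18 subunits were above 0, with a median of 0.26, and at 4% pO2 9 were, with a median of 0.01. Of all genes 50.9% and 52.2% were above 0, and whether the subunits differ from them was not tested. No gene of these lists was 2-fold lower at both levels, where 1.13% of all genes were, and none of 10 acid and lactate sensors reached a mean of 1 FPKM.

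**Figure D5:**
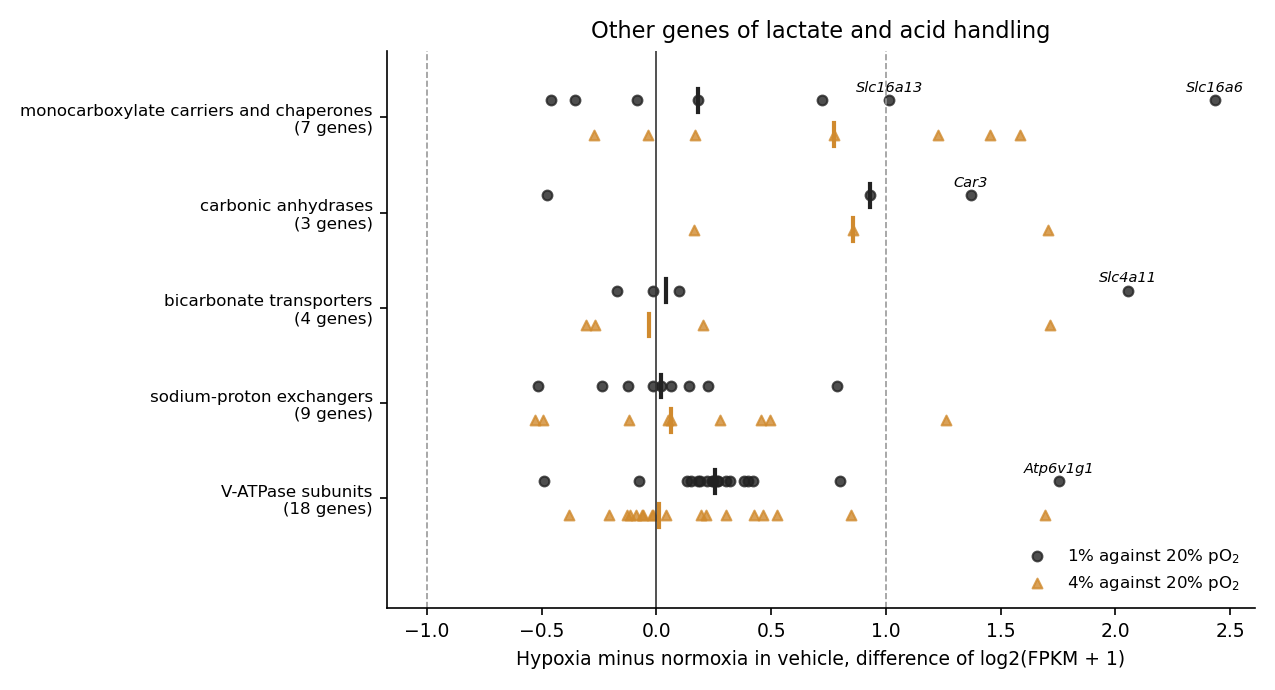
Hypoxia minus normoxia in vehicle (x axis, difference of log2(FPKM + 1)) for the other measured genes of 5 pathway lists, at 1% (circles) and 4% pO2 (triangles), with a bar at each median, dashed lines at the 2-fold mark and names for the genes past it at both levels. *Slc16a6*, *Slc16a13*, *Car3*, *Slc4a11* and *Atp6v1g1* stand right of their lists, and the medians of the exchangers and the pump subunits lie between 0.01 and 0.26.

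Likeness of pattern was measured by Pearson's r of log2(FPKM + 1) over the 6 libraries against the protein-coding genes that average 5 FPKM or more (8624 of them, or 8625 where the member itself is below that). It is a description, since the points share libraries and most spread is between hypoxia and normoxia. *Slc16a3* was most like *Ak4*, a mitochondrial adenylate kinase, with r above 0.99, then *Pdxp* and *Whrn*. *Ak4* measured 32.8 and 33.8 FPKM at 1% pO2 (PT2385 and vehicle), 34.9 and 35.6 FPKM at 4% pO2, and 1.56 and 0.720 FPKM at 20% pO2, so it too had more with PT2385 in normoxia. *Car9* was most like *Nub1*, *Rasa4* and *Gabarapl1*, although *Nub1* differed by only 0.42 and 0.43, since r ignores the size of a change.

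*Bsg*, with its grading by oxygen, was most like *Lgals3* (galectin-3), *Ddit4* (REDD1, an inhibitor of mTORC1) and the chemokine receptor gene *Ackr3*. *Ddit4* measured 186 and 177 FPKM at 1% pO2 (PT2385 and vehicle), 70.3 and 67.5 FPKM at 4% pO2, and 10.9 and 9.14 FPKM at 20% pO2. *Slc16a1* was most like *B4galt6*, *Fkbp10* and *Utp15*, which were lower in hypoxia, with vehicle differences of −0.38 to −0.45 at 1% pO2. *Slc4a7* was most like *Helz*, *Epb41l2* and *Dido1*, which were also high at 4% pO2, and *Slc4a4* most like *Zfand2a*, *Actr2* and *Sra1*, which were high at 1% pO2.

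*Slc4a2* was most like *Camk2d*, *Il17ra* and *Cuedc1*, and *Car12* most like *Ctnnal1*, *Fnip1* and *Gosr1*. *Car2* was most like *N4bp2l2* (r = 0.98), *Zfp280d* and *Zfp560*. An r of at least 0.95 was found with 507 genes for *Slc16a3*, 505 for *Car9*, 465 for *Bsg*, 405 for *Slc4a2*, 289 for *Slc16a1*, 266 for *Slc4a4*, 262 for *Car12* and 240 for *Slc4a7*, so none of these patterns was rare. For *Car2* it was 1 gene, but *Car2* rests on 15 to 41 estimated fragments per library. Its count therefore does not show that its pattern is rare. Among the 9 genes, *Slc16a3* and *Car9* were the pair most alike (r above 0.99), and *Bsg* and *Slc16a1* ran most opposite (r = −0.98).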

How the data were processed

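RNA of mouse primary myoblasts was sequenced in 6 libraries, 1 per condition, grouped by the treatment label. The authors deposited a single table. Its values were read as FPKM, because they are not whole and the submitters' notes name Cuffdiff; no source states the unit. The supplementary methods name TopHat2 and GRCm38 transcripts, and the submitters' processing notes name HISAT2 2.1.0, SAMtools 1.3.1, Cufflinks and Cuffdiff 2.2.1. No member was listed at 0, but 121 genes were listed at 0 in a library and at 5 FPKM or more in another.

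Differences of log2(FPKM + 1) were computed as deposited, with no test, on genes with a mean of at least 1. The fragments behind a value were worked out from the spacing of low values (93.5% to 100% of which lay within 0.15 of a whole fragment) and the shortest consensus coding transcript, and ratios were given exact binomial 95% intervals. GENCODE M21 held 99.8% of the identifiers. Named are the 9 members, up to 5 genes per pathway list past 2-fold in 1 direction at both pO2 levels in vehicle, and 3 genes most like each member. *Emb*, *Nptn*, *Car13*, *Car8*, *Slc9a2* and the genes that overlap members were named after their values were seen. The members and lists were chosen with earlier results of these data known. As alternatives, the pseudocount was set to 0.1, the filter to none or to a mean of 5, the libraries were rescaled by the median ratio or to the same sum, and 1.5-fold was used. The differences and 2-fold counts were tested on simulated data for genes at higher levels, and the fragment estimates and their intervals were not. Python 3.11.15, numpy 2.4.6, pandas 2.3.3, scipy 1.17.1 and matplotlib 3.10.9 were used.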

Additional observations from a re-analysis of the deposited data

Results flagged for a closer look

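*Car9* stood apart because its PT2385 to vehicle ratio lay on opposite sides of 1 at different pO2 levels, beyond counting error. It was 2.53 (1.59 to 4.09) at 20% pO2, from 68 and 27 estimated fragments, against 0.885 (0.842 to 0.930) at 1% and 0.865 (0.819 to 0.914) at 4% pO2. *Car2* did so for hypoxia, with a ratio of 1% to 20% pO2 of 2.28 (1.18 to 4.43) with PT2385 and 0.419 (0.222 to 0.7496) with vehicle, and for PT2385, with a ratio to vehicle of 1.97 (1.06 to 3.75) at 1% and 0.363 (0.188 to 0.674) at 20% pO2. The *Car2* values rest on 15 to 41 estimated fragments per library. Each side of these contrasts is a single library, so the difference between the ratios was not tested, and the *Car2* contrasts share libraries.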

How the results depend on the processing

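No paired analysis was possible because the groups share fewer than 2 replicate numbers, each holding 1 library. Pairing PT2385 with vehicle across the pO2 levels was not run. The counts here are of the members that pass the filter, 7 in the main setting and not all 9. *Car2* and *Slc4a4* entered only where no filter was set, so they were not counted with a pseudocount of 0.1 or at 1.5-fold. Within that limit the counts of 2-fold members kept within 1.5 times their size except in the following. For 4% against 20% pO2 with PT2385, 4 members passed 1.5-fold, against 2 at 2-fold. For 1% against 4% pO2 in vehicle, 1 of the 7 (*Slc4a7*, lower) passed 1.5-fold, against 0 at 2-fold. *Slc4a4*, not among the 7, was higher there by 0.76, also past 1.5-fold. For PT2385 against vehicle at 20% pO2, where 1 member was 2-fold, the count was 2 with a pseudocount of 0.1 (*Slc16a3* and *Car9*), 2 at 1.5-fold and 0 with the libraries rescaled to the same sum. The sign stayed in 63 of 63 single differences with median-ratio rescaling and in 58 of 63 with rescaling to the same sum. Another pseudocount or filter cannot change the sign of a single difference. The 63 of 63 kept with a pseudocount of 0.1, 81 of 81 with no filter and 54 of 54 with a mean of at least 5 were therefore fixed in advance. The pseudocount of 0.1 raised the differences of low genes, putting *Car12* at 2.15 and 2.68 in vehicle at 1% and 4% pO2. Depth limits *Car2*, *Slc4a4* and *Car12* throughout, and *Slc16a3* and *Car9* at 20% pO2.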
